A study of Homo sapiens with 42 samples.

Results

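H3K36me2 and H3K36me3, dimethylation and trimethylation of lysine 36 of histone H3, were compared in parental NCI-H661 cells, which were given no treatment. The line comes from a large cell carcinoma of the lung and makes DPPA2 and DPPA4, proteins otherwise typical of early embryos. The comparison took 4 of the 42 samples in the series, the libraries titled for either mark in this line, with 2 replicates of H3K36me2 and 2 of H3K36me3. All 4 came from chromatin of single-crosslinked cells, whereas the DPPA2 (2 libraries), DPPA4 (2 libraries) and KDM2A (1 library) ChIPs set beside them used double-crosslinked cells. The labels leave unsaid whether each replicate was its own culture, and p-values then measure only the spread between these samples, possibly a technical one. For each library the authors deposited a list of islands, the broad enriched domains called by EPIC2 against the matched input. An island was kept at a log2 fold over input above 1 and an FDR below 0.05.

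Both marks sit on the same lysine and therefore exclude each other on one histone tail. H3K36me2 is laid down by the NSD enzymes and ASH1L over broad stretches in and between genes. H3K36me3 is laid down by SETD2, which travels with elongating RNA polymerase II, and so marks the bodies of transcribed genes. KDM2A, which binds unmethylated CpG-rich DNA through a CXXC zinc finger, removes methyl groups from H3K36me2. DPPA2 and DPPA4 are DNA-binding partners known from embryonic stem cells, where they bind CG-rich promoters. The question was where in the genome and along genes the marks differ in cells that express both proteins.

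The replicates of each mark differed in extent. H3K36me2 replicates 1 and 2 had 46875 and 93211 islands covering 61.8 Mb and 146.1 Mb, against 99180 and 62852 islands covering 186.6 Mb and 80.0 Mb in H3K36me3 replicates 1 and 2. Islands held 1.56 M and 4.24 M ChIP reads for H3K36me2, against 5.97 M and 3.42 M for H3K36me3, counts that are reads inside islands and not sequencing depth. Of the H3K36me2 island bases, 36.7% of replicate 1 and 15.5% of replicate 2 lay in islands of the other replicate, against 34.2% and 79.8% for H3K36me3. Base composition followed the replicate number as well, with a GC content of 45.2% and 52.4% in the H3K36me2 islands and 44.8% and 50.3% in the H3K36me3 islands of replicates 1 and 2, against 40.9% in the genome. For this reason each result is given per library, and several also for the bases found in both replicates. With 2 libraries against 2, the smallest p that an exact permutation test can give is 0.33, so no single value tested over the 4 libraries could pass 0.05.

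Regions found in both replicates, joined from islands of which more than 25% lay in islands of the other replicate, numbered 17647 for H3K36me2 and 31510 for H3K36me3. Their median widths were alike, at 1900 bp for H3K36me2 and 2000 bp for H3K36me3. The widest regions were not: 255 H3K36me2 regions were at least 10 kb wide and held 8.33% of the mark's bases, against 1882 H3K36me3 regions that held 28.8%. Bases in islands of both replicates came to 22.7 Mb for H3K36me2 and 63.8 Mb for H3K36me3.

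Islands of H3K36me2 and H3K36me3 shared few bases. Only 0.199 Mb lay in islands of both replicates of both marks. This was 0.876% of the H3K36me2 bases, while H3K36me3 covered 2.17% of the genome. It was 0.312% of the H3K36me3 bases, while H3K36me2 covered 0.773% of the genome. Of the H3K36me2 regions 2.24% touched a base of H3K36me3 seen in both replicates, and 92.1% held no H3K36me3 island of either replicate. Of the H3K36me3 regions 1.27% touched H3K36me2 and 87.2% held none. Each mark covered a small part of the genome, so most regions would lack the other mark by coverage alone. No share expected from coverage was computed for these region counts, so they do not show separation. For single libraries, the share of H3K36me2 bases inside H3K36me3 islands was 3.44% and 1.83% for H3K36me2 replicate 1 and 4.48% and 4.12% for replicate 2, taking H3K36me3 replicates 1 and 2 in turn. These shares lay below the part of the genome that H3K36me3 replicate 1 covered, 6.35%, and to both sides of the 2.72% that replicate 2 covered. The median distance to the nearest region of the other mark was 38.9 kb from a H3K36me2 region and 57.1 kb from a H3K36me3 region.

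The 0.199 Mb that carried both marks differed from the rest of either mark. First introns made up 20.3% of these bases, against 9.17% of the H3K36me2 bases with no H3K36me3 and 5.85% of the H3K36me3 bases with no H3K36me2. H3K27ac, a mark of active promoters and enhancers, lay over 35.5% of the doubly marked bases, against 7.55% of bases with H3K36me2 alone and 7.43% of bases with H3K36me3 alone. H3K4me1, an enhancer mark, lay over 26.5% of them, against 10.8% of the bases with H3K36me2 alone and 4.79% of those with H3K36me3 alone. The rise was not limited to marks of active DNA. H2AK119ub, a Polycomb mark, lay over 9.50% of the doubly marked bases, against 5.28% with H3K36me2 alone and 1.05% with H3K36me3 alone. H3K9me3, a heterochromatin mark, lay over 7.29% of them, against 1.13% and 0.619%. These shares have no replicate error, because the replicates were joined to define the bases.

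The sharpest difference was between genes and the space around them. The share of island bases outside every annotated gene was 41.8% and 36.7% in the H3K36me2 libraries, against 2.36% and 3.25% in the H3K36me3 libraries and 39.5% of the sequenced genome. The difference in means was 36.4 percentage points (H3K36me2 39.2% ± 3.61, H3K36me3 2.81% ± 0.635, SD, n = 2 each, exact permutation p = 0.33, two-sided, the smallest possible). H3K36me2 was thus spread over intergenic DNA about as widely as the genome itself, and H3K36me3 was nearly absent from it. On bases found in both replicates the shares were 45.8% for H3K36me2 and 1.85% for H3K36me3.

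**Figure D1:**
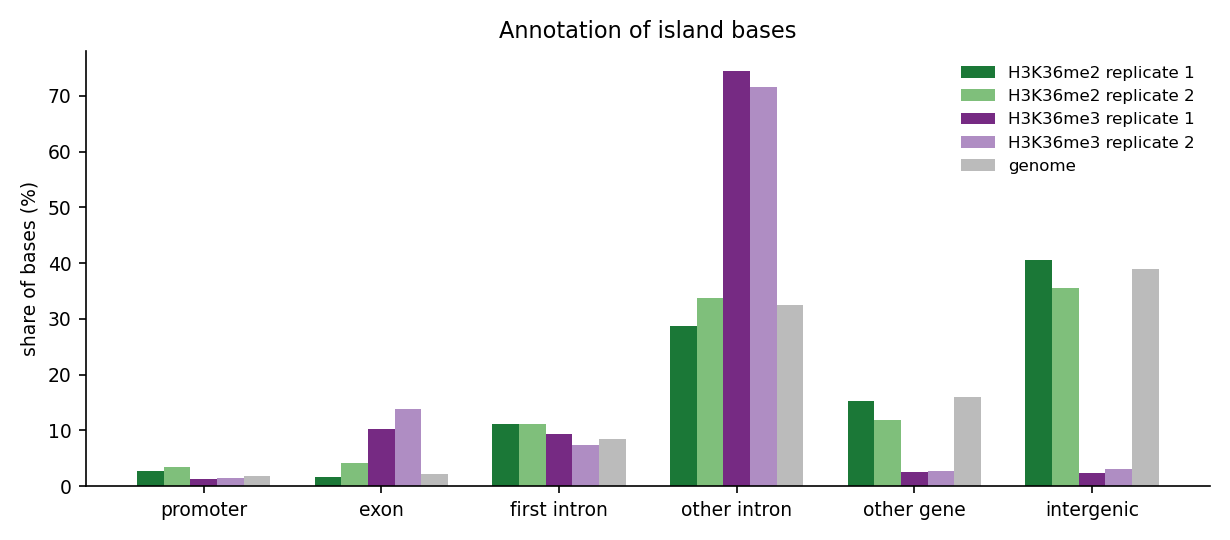
Share of island bases (vertical axis, %) in 6 annotation classes, taken in the order shown so that each base counts once, for the H3K36me2 and H3K36me3 libraries (bars, 1 per replicate) and the genome without assembly gaps (grey). Introns other than the first held 74.4% and 71.6% of the H3K36me3 bases, and intergenic DNA held 40.6% and 35.5% of the H3K36me2 bases.

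Inside genes the marks were divided as well. Promoters, within 1500 bp of a protein-coding start, held 2.73% and 3.49% of H3K36me2 bases, against 1.22% and 1.40% of H3K36me3 bases and 1.86% of the genome. Exons of the canonical transcripts held 1.56% and 4.24% of H3K36me2 bases, against 10.3% and 13.8% of H3K36me3 bases and 2.17% of the genome. First introns held 11.1% and 11.2% of H3K36me2 bases, against 9.29% and 7.39% of H3K36me3 bases. Later introns held 28.7% and 33.7% of H3K36me2 bases, against 74.4% and 71.6% of H3K36me3 bases. In all 4 classes the replicates of one mark did not overlap those of the other.

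The intergenic islands of the marks lay at different places relative to genes. Outside genes, H3K36me2 bases were a median of 20.5 kb and 16.7 kb from the nearest start or end of a protein-coding gene, against 1.89 kb and 2.19 kb for H3K36me3 bases. The nearest such point was the end of a gene for 39.3% and 44.9% of H3K36me2 bases, against 85.0% and 78.4% of H3K36me3 bases. The few intergenic H3K36me3 islands therefore lay mostly just past gene ends, while H3K36me2 was found on both sides of genes and far from them.

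Along gene bodies the coverage of H3K36me3 was higher towards the end in both replicates, while the replicates of H3K36me2 differed in shape. Each protein-coding gene of at least 10 kb was cut into deciles from start to end, and the covered part of each decile was averaged over genes with any island of the library (4652 and 6711 genes for H3K36me2, 8939 and 7971 for H3K36me3). In H3K36me2 replicate 1 coverage was 8.55% in decile 1, 9.16% in decile 2, where it was highest, and 5.78% in decile 10. In H3K36me2 replicate 2 it was 17.8% in decile 1 and 21.02% in decile 10, with all other deciles between them. In H3K36me3 replicate 1 it was 17.5% in decile 1, 47.03% in decile 9 and 42.5% in decile 10. In H3K36me3 replicate 2 it was 6.03% in decile 1, 29.4% in decile 9 and 27.6% in decile 10. The highest decile had 1.58 and 1.18 times the coverage of the lowest for H3K36me2, against 2.69 and 4.87 times for H3K36me3. In genes of 300 kb and over H3K36me2 replicate 2 was also highest in decile 10, at 8.05% and 1.95 times its lowest decile, with 38.5% of its summed profile in deciles 8 to 10. Replicate 1 had 28.9% there, against 44.1% and 49.4% for H3K36me3.

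**Figure D2:**
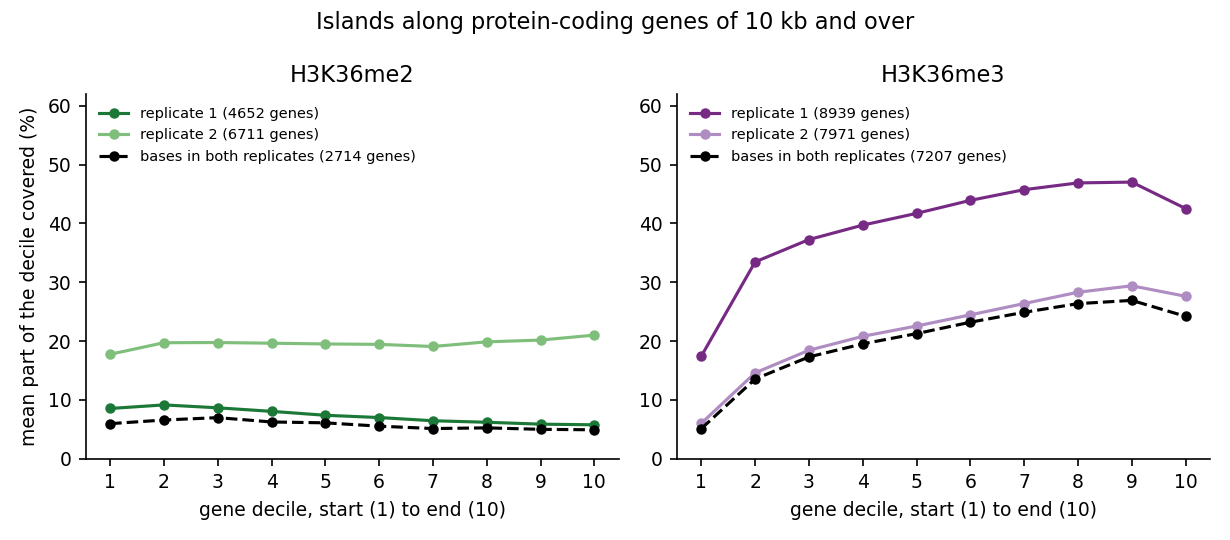
Mean part of each gene decile in islands (vertical axis, %) along protein-coding genes of 10 kb and over, from start (decile 1) to end (decile 10), for H3K36me2 (left) and H3K36me3 (right). Coloured lines are single replicates and the dashed line is the bases found in both. H3K36me3 climbs from decile 1 to decile 9 in both replicates, and H3K36me2 is highest in decile 2 in replicate 1 and in decile 10 in replicate 2.

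Deciles 1 to 3 held 36.03% and 29.2% of the summed gene-body profile of H3K36me2, against 22.3% and 17.9% of that of H3K36me3. The means differed by 12.5 percentage points (H3K36me2 32.6% ± 4.82, H3K36me3 20.1% ± 3.12, SD, n = 2 each, exact permutation p = 0.33, two-sided). Deciles 8 to 10 held 24.4% and 31.2% for H3K36me2, against 34.5% and 39.03% for H3K36me3, a difference of -8.96 percentage points with the same p. In neither stretch did the libraries of the marks overlap, and the differences on bases found in both replicates were 16.04 and -12.0 percentage points.

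The step at the gene start was visible in bases as well as in deciles. Over the 14266 genes of at least 10 kb, H3K36me2 islands covered 6.49% and 11.5% of the window centred 1.75 kb before the gene start, against 6.62% and 2.86% for H3K36me3. In the first 500 bases of the gene coverage was 1.65% and 6.89% for H3K36me2, against 1.05% and 0.699% for H3K36me3. In the window centred 4.25 kb after the gene start it was 3.08% and 9.15% for H3K36me2, against 23.4% and 9.77% for H3K36me3. Both marks thus dipped at the start itself. H3K36me3 was higher inside the gene than before it in both replicates, and H3K36me2 was lower inside than before it in both.

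Gene by gene, H3K36me2 lay closer to the start than H3K36me3. The coverage centre of a library in a gene is the mean relative position of the covered bases, 0 at the start and 1 at the end. It was fitted with limma in the 969 protein-coding genes of at least 10 kb in which islands of every library covered at least 2 kb, a set with a median length of 114.7 kb. The median centres were 0.411 and 0.480 for H3K36me2, against 0.639 and 0.679 for H3K36me3. H3K36me2 was called closer to the start in 473 genes (48.8%) and closer to the end in 12.3% of the genes fitted, which made 592 genes (61.1%) past an adjusted p of 0.05 with a shift of at least 0.1. The median shift, H3K36me2 minus H3K36me3, was -0.238 over all genes fitted. In 613 genes both H3K36me2 centres lay before both H3K36me3 centres, in 178 both lay after, and in 178 the libraries overlapped. Leaving out H3K36me2 replicate 1 gave 1204 calls among 1977 genes, and leaving out H3K36me3 replicate 1 gave 343 among 1017, with H3K36me2 closer to the start in 876 and 282 of them.

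By gene length, the median shift was nearest to 0 in the longest genes. It was -0.278 in genes of 10 to 50 kb, -0.248 in genes of 50 to 100 kb, -0.251 in genes of 100 to 300 kb and -0.0675 in genes of 300 kb and over. In the last class 41 of 122 genes had H3K36me2 called closer to the start and 22 closer to the end. The difference between length classes was not tested.

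The genes named here are the 10 with the largest shift each way among those called, leaving out genes of which over 20% overlaps another protein-coding gene. PHF19, a Polycomb-associated reader of methylated H3K36, had H3K36me2 centres of 0.0593 and 0.148, against H3K36me3 centres of 0.782 and 0.769 (shift -0.671, SE 0.0623, limma adjusted p = 0.00394). STAT5B, a transcription factor of cytokine signalling, had H3K36me2 centres of 0.2504 and 0.115, against H3K36me3 centres of 0.845 and 0.831. TNRC6B, a scaffold of microRNA silencing, had H3K36me2 centres of 0.126 and 0.193, against H3K36me3 centres of 0.791 and 0.830. In these 3 genes both H3K36me2 centres lay before both H3K36me3 centres, although H3K36me2 covered little of them. It covered 1.61% and 2.51% of TNRC6B, 9.725% and 11.44% of STAT5B and 5.86% and 14.5% of PHF19. PRDX1, a peroxide-removing enzyme, had H3K36me2 centres of 0.191 and 0.233, against H3K36me3 centres of 0.865 and 0.844. DUS2, CFAP92, TAB2, HECTD4, ZSWIM6 and GDI2 made up the other members, and the 10 shifts ran from -0.718 in DUS2 to -0.626 in GDI2. HECTD4 was the one with the most H3K36me3 in replicate 1, over 59.4% of the gene. In replicate 2 it had 23%, against 24.2% in PHF19. H3K36me2 lay over 2.61% and 0.900% of HECTD4.

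In a smaller group the order was turned round. CDCA5, which encodes the cohesin protector sororin, had H3K36me2 centres of 0.901 and 0.916, against H3K36me3 centres of 0.275 and 0.248 (shift 0.647, SE 0.0564, limma adjusted p = 0.00394). ANAPC1, a subunit of the anaphase-promoting complex, had H3K36me2 centres of 0.780 and 0.767, against H3K36me3 centres of 0.158 and 0.127. RAD51B, a homologous recombination gene of 910.4 kb, had H3K36me2 centres of 0.582 and 0.768, against H3K36me3 centres of 0.0236 and 0.132. In each of them both H3K36me3 centres lay before both H3K36me2 centres. POLR2F, a subunit shared by the nuclear RNA polymerases, SLC38A6, TTC27, SH3D21, CLNS1A, RNFT2 and HS1BP3 completed the set, with shifts of 0.528 to 0.647 over the 10 genes. Annotated gene spans were used, so that a gene whose main transcript ends early is measured to the end of its longest one.

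**Figure D3:**
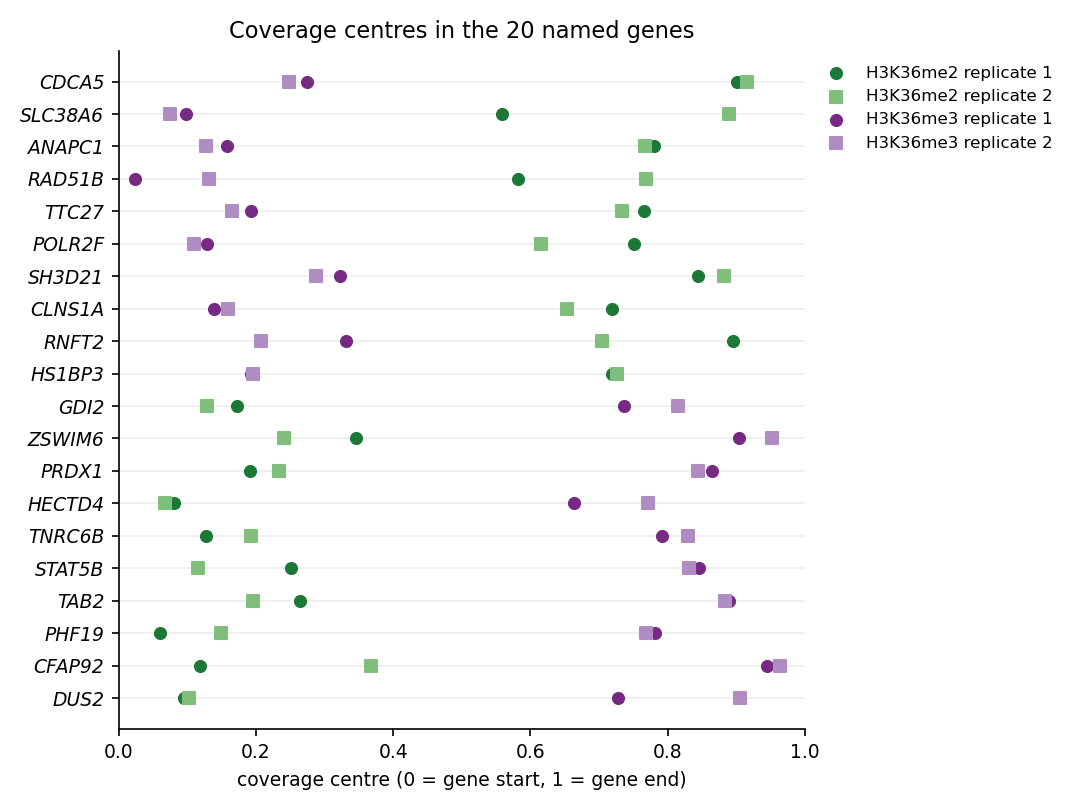
Coverage centre (horizontal axis, 0 at the gene start and 1 at the gene end) of each library in the 20 named genes. Green points are H3K36me2 and purple points H3K36me3, 1 per replicate. The points of the marks do not overlap in any of these genes, which were chosen for their shift.

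The same split could be read from single bases. Of the 969 genes, 794 held bases of each mark seen in both replicates. In 309 of these (38.9%) all such H3K36me2 bases came before all such H3K36me3 bases. In 99 (12.5%) all came after, and in 386 (48.6%) the marks were interleaved. Where H3K36me2 came first, its last base seen in both replicates lay a median of 33.5 kb after the gene start. The first H3K36me3 base seen in both replicates followed after a median gap of 15.7 kb (quartiles 7.3 and 30.3 kb). Islands of a single replicate were not counted and could lie in that gap.

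Members of the fixed gene lists, which were chosen with earlier results of these data known, fell into the same groups. Among the 16 listed readers of H3K36 methylation, 5 were fitted, of which 3 were called with H3K36me2 closer to the start (PHF19, the mismatch repair gene MSH6 and the DNA methyltransferase gene DNMT3A) and 1 closer to the end (IWS1, an elongation factor). The Polycomb genes JARID2 and PHC2 were the 2 called of 5 fitted among 29, both with H3K36me2 closer to the start. JARID2, a cofactor of Polycomb repressive complex 2, had H3K36me2 over 17.3% and 19.3% of the gene, against 14.5% and 8.15% for H3K36me3, and a shift of -0.459 (SE 0.0588, limma adjusted p = 0.00397). Of the receptor tyrosine kinase genes, AXL, MERTK and DDR1 were called in the same direction out of 4 fitted. The tumour suppressor gene RB1 was the only one called among 3 fitted lung cancer genes, with H3K36me2 closer to the end by 0.463 (SE 0.0663). Called shares of 48.8% and 12.3% over all 969 genes are the background for these counts. Except for PHF19, these members were named after their values were seen.

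Marked genes were shorter for H3K36me2 than for H3K36me3. At least 25% of the gene lay in islands for 361 and 2987 protein-coding genes in the H3K36me2 libraries, against 6871 and 3775 in the H3K36me3 libraries. Their median lengths were 11.2 kb and 16.3 kb for H3K36me2, against 26.4 kb and 18.2 kb for H3K36me3 and 26.9 kb for all 19320 genes. The geometric means differed by a log2 ratio of -0.70, a ratio of 0.615 (n = 2 each, exact permutation p = 0.33, two-sided). The libraries of the marks did not overlap. Only 5 genes passed this limit in both libraries of both marks, while 302 did so for H3K36me2 and not H3K36me3 (median length 11.1 kb) and 3563 for H3K36me3 and not H3K36me2 (19.1 kb).

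Counted over bases, the length dependence was steeper for H3K36me3. In genes under 10 kb islands covered 2.33% and 14.3% of gene bases for H3K36me2, against 21.6% and 15.4% for H3K36me3. In genes of 10 to 50 kb they covered 2.44% and 10.5% for H3K36me2, against 31.3% and 16.3% for H3K36me3. In genes of 300 kb and over they covered 1.33% and 2.24% for H3K36me2, against 2.13% and 0.731% for H3K36me3. In the longest genes the libraries of the marks overlapped, unlike in genes of 10 to 50 kb.

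**Figure D4:**
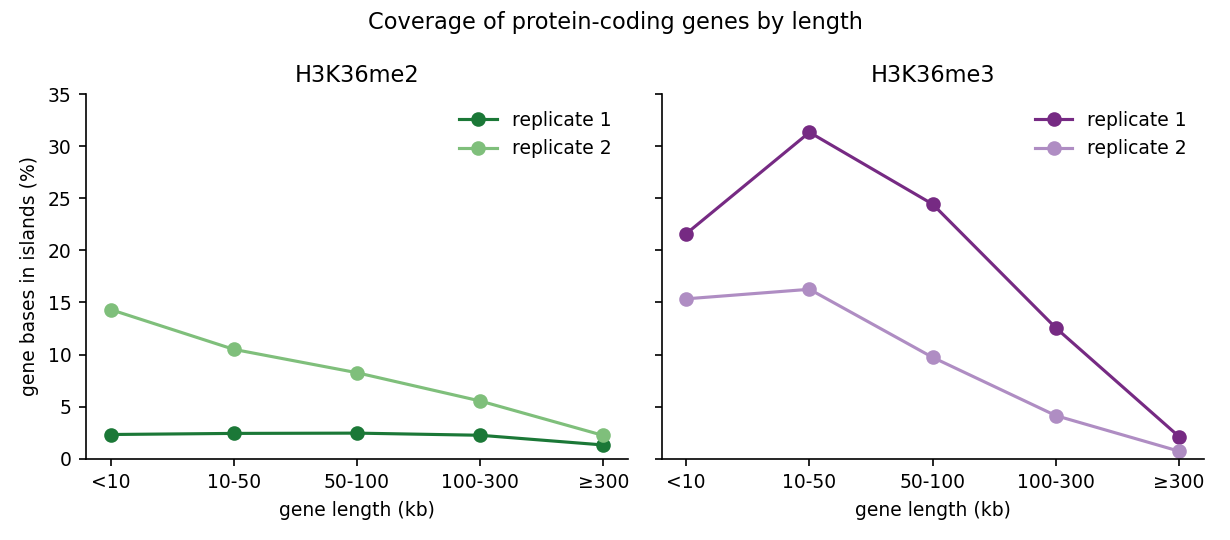
Part of the bases of protein-coding genes in islands (vertical axis, %) by gene length in kb, for H3K36me2 (left) and H3K36me3 (right), with 1 line per replicate. H3K36me3 is highest at 10 to 50 kb, at 31.3% and 16.3%, and lowest at 300 kb and over in both replicates.

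Many genes carried islands of only one mark. Both H3K36me2 libraries had an island in 4250 of 19320 genes (22.0%) and both H3K36me3 libraries in 9002 (46.6%), and 2205 genes had both. Of the genes with H3K36me2 in both libraries, 1522 had no H3K36me3 island at all. Leaving out genes of which over 20% overlaps another gene, 1404 remained, and the 5 with the most H3K36me2 were PRDM16, CUX2, SH3PXD2A, COL23A1 and PLB1. In CUX2, a homeobox gene of neurons (chromosome 12, 111034165 to 111350554, hg38), H3K36me2 covered 23 kb and 97.5 kb of 316.4 kb. In PLB1, a phospholipase gene on chromosome 2, it covered 33.1 kb and 79.9 kb. PRDM16, a zinc finger gene of brown fat and blood stem cells, had 2.30 kb and 157.7 kb, and SH3PXD2A and COL23A1 rested mostly on replicate 2 in the same way.

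For H3K36me3 the corresponding genes included FNDC3B, UBR4, MTOR and COL11A1. In MTOR, the kinase of the growth-controlling mTOR complexes, H3K36me3 covered 80.7% and 45.0%. In UBR4, a ubiquitin ligase gene, it covered 92.5% and 68.1%. COL11A1 had 176.6 kb in replicate 1 and 16.0 kb in replicate 2, so here too replicates differed.

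The longest regions of one mark alone lay mostly outside protein-coding genes for H3K36me2 and inside them for H3K36me3. Of the 5 longest H3K36me2 regions with no H3K36me3 in either replicate, 4 lay on chromosome 20 and 1 on chromosome 6. The longest, of 33.1 kb on chromosome 20 (62757701 to 62790800), ran over LINC00659 and reached into NTSR1, a neurotensin receptor gene, with 15.3% of the region. An exception, mostly inside genes, was a region on chromosome 20 (63230001 to 63253700), of which 74.0% lay in BIRC7 and NKAIN4. The region on chromosome 6 (43920101 to 43944600) lay 133.6 kb from the nearest protein-coding gene, VEGFA, and held 526 and 972 reads. H3K36me2 covered 5.08% of chromosome 20 in both replicates, more than of any other chromosome, against 0.773% of the genome, and H3K36me3 covered 6.54% of it. All 5 longest H3K36me3 regions lay over 99% inside protein-coding genes. The longest, 68.1 kb on chromosome 14 (34562201 to 34630300), covered SNX6, a retromer-linked sorting nexin gene, with 10396 and 9632 reads.

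The levels of the marks where both were present differed in few genes. Reads per gene were fitted with edgeR's quasi-likelihood test (TMM) in the 181 protein-coding genes of at least 5 kb in which islands of every library covered at least 10% of the gene, since reads were listed only inside islands. At an adjusted p below 0.05 and a log2 change of at least 1, relative to the median gene, 26 genes were called (14.4%), with more H3K36me2 in 14 (7.73%) and less in 12 (6.63%). These calls depended on having all 4 libraries. Of the genes tested, 48 lay on chromosome 20, as did 11 of the 26 called. Leaving out H3K36me2 replicate 1 or H3K36me3 replicate 2 left 0 calls, at an unadjusted p below 0.05 for 366 of 1044 and 51 of 277 genes. Leaving out H3K36me2 replicate 2 left 4 and H3K36me3 replicate 1 left 2. Per covered base 0 of 181 genes were called by edgeR, with 27 at an unadjusted p below 0.05, against 36 per gene by DESeq2. No difference in read density over covered bases was therefore called.

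TFEB, the master regulator of lysosomal genes, had the largest change towards H3K36me2 among called genes with at most 20% overlap, with 485 and 1794 reads for H3K36me2, against 250.0 and 436 reads for H3K36me3 (log2 change 2.33, SE 0.61, edgeR adjusted p = 0.00875). Its H3K36me2 islands covered 37.0% and 88.2% of the gene, against 17.6% and 22.8% for H3K36me3. The T cell and neuronal surface gene THY1, the homeobox gene LHX4 and the neural zinc finger gene MYT1 were also called, with ZP1, OPRL1, CATSPERG and CYB561, at log2 changes of 1.53 to 2.08. Towards H3K36me3, RALY, an RNA-binding protein gene, had 308 and 325 reads for H3K36me2, against 3266 and 2482 reads for H3K36me3 (log2 change -2.22, SE 0.62, edgeR adjusted p = 0.0158). DNMT3B, a DNA methyltransferase that reads H3K36 methylation, had 136 and 364 reads for H3K36me2, against 1238 and 1420 reads for H3K36me3 (log2 change -1.72). RPL22, a ribosomal protein gene, ATP9A, GRAMD1A, NFKBIB, ACOT8, ZNF131, AHCY and GGT7 were also called, at log2 changes of -1.71 to -2.04. Housekeeping genes entered the fit once, with PPIA, at a log2 change of 0.87 (edgeR adjusted p = 0.350), and receptor tyrosine kinases once, with FGFR1, at -0.28 (edgeR adjusted p = 0.857).

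Outside the fits, the gene lists split by mark. Among 20 transcription elongation factor genes 19 had H3K36me3 in both libraries and 2 had H3K36me2. Among 34 ribosomal protein genes 27 had H3K36me3 and 3 had H3K36me2, and among 30 housekeeping genes the counts were 28 for H3K36me3 and 7 for H3K36me2, in a background of 46.6% and 22.0% of all genes. Receptor tyrosine kinase genes went the other way, with H3K36me2 in 15 and H3K36me3 in 12 of 32. Of 33 long neuronal genes 10 had H3K36me2, 6 had H3K36me3 and 17 had no island. In such long genes 1 small island is enough to be counted, and they held little of either mark. Mean coverage was 0.645% and 0.242% for H3K36me2, against 2.34% and 10.4% over all genes. For H3K36me3 it was 0.396% and 0.0811%, against 22.9% and 12.3%. All 35 olfactory receptor genes had no island of either mark. These counts carry no test.

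Most genes for the H3K36 methyltransferases carried H3K36me3, and those for the demethylases were divided. Against 46.6% of all genes, H3K36me3 was found in both libraries in 7 of 8 H3K36 methyltransferase genes, among them NSD1, NSD2, NSD3, ASH1L and SETD2. H3K36me2 was found in both libraries in 2 of the 8, NSD3 and SMYD2, against 22.0% of all genes. SETD2 had 0% H3K36me2 in both libraries, against 49.2% and 7.85% H3K36me3. NSD2 had 0% H3K36me2, against 36.9% and 15.9% H3K36me3. Of 8 demethylase genes 5 had H3K36me3 in both libraries and 2 had H3K36me2. KDM2A had 0% H3K36me2, against 63.9% and 31.3% H3K36me3, while KDM4D and RIOX1 had 0% H3K36me3 in both libraries. Expression was not measured in these libraries.

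Line and cell type markers, checked with H3K36me3 as a stand-in for transcription, put H3K36me3 over the genes that define it and not over the lung lineage genes. DPPA2 had 0% H3K36me2, against 68.6% and 29.9% H3K36me3, and DPPA4 had 0% H3K36me2, against 64.0% and 21.05% H3K36me3. The mesenchymal filament gene VIM had 0% H3K36me2, against 69.5% and 18.2% H3K36me3. COL1A1, a collagen gene listed for fibroblasts, had 0% and 48.5% H3K36me2, against 42.2% and 48.5% H3K36me3. Of the epithelial genes, KRT8 had 43.3% and 72.9% H3K36me2, against 0% H3K36me3 in both libraries, and CDH1 had no H3K36me3 either. KRT18 and EPCAM had H3K36me3 in replicate 1 only, over 32.2% and 18.1% of the gene, and H3K36me2 in both libraries. The lung secretory genes SFTPB and SCGB1A1 and the endothelial genes PECAM1 and CDH5 likewise had H3K36me2 in both libraries and H3K36me3 in neither. SFTPB had 8.75% and 87.7% H3K36me2, and PECAM1 had 19.7% and 45.3%. In all, 8 of the 19 markers had H3K36me2 in both libraries and 4 had H3K36me3, with no gene in common, and PTPRC, CDH2 and NKX2-1 had no island. Over all genes 22.0% had H3K36me2, 46.6% had H3K36me3 and 11.4% had both. With so few markers the lack of a common gene shows no split between them. The markers were named after their values were seen.

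For DPPA2 and DPPA4 peaks the H3K36me2 replicates lay on either side of H3K36me3. Of 15821 DPPA2 peaks found in both replicates, 4.60% and 20.2% touched H3K36me2 islands, against 13.8% and 12.995% for H3K36me3. Of 12980 DPPA4 peaks, 3.91% and 21.03% touched H3K36me2, against 13.6% and 13.4% for H3K36me3. The differences in means were -1.01 and -1.002 percentage points, with exact permutation p = 1 for each (two-sided, n = 2 each). Without H3K36me2 replicate 1 they were 6.77 and 7.56 percentage points, so the direction rests on that library. Bases of DPPA2 peaks lay in H3K36me2 islands at 1.006 and 2.86 times the genome's share, against 1.497 and 3.71 times for H3K36me3. For DPPA4 peaks the values were 0.9499 and 3.015 times for H3K36me2, against 1.547 and 4.001 times for H3K36me3. Only DPPA4 peaks in H3K36me2 replicate 1 thus lay below the genome's share. On bases found in both replicates, of which H3K36me3 has more, 2.81% of DPPA2 peaks touched H3K36me2, against 9.72% for H3K36me3, and 2.596% of DPPA4 peaks touched H3K36me2, against 9.82% for H3K36me3, differences of -6.91 and -7.23 percentage points.

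Split by position, the peaks of either factor gave different orders of the marks. Of the 3331 DPPA2 peaks away from starts and outside protein-coding genes, 8.05% and 28.2% touched H3K36me2, against 4.68% and 4.74% for H3K36me3. Of the 5559 away from starts but inside genes, 3.51% and 25.4% touched H3K36me2, against 28.5% and 28.9% for H3K36me3. Of the 6931 at starts, 3.82% and 12.1% touched H3K36me2, against 6.43% and 4.18% for H3K36me3. Outside genes both H3K36me2 libraries were above both H3K36me3 libraries, inside genes both were below, and at starts they overlapped. DPPA4 peaks gave the same order, with 6.88% and 31.6% for H3K36me2 outside genes, against 4.61% and 5.10% for H3K36me3. The marks themselves were split in this way. Of the H3K36me2 bases 57.4% and 48.8% lay outside protein-coding genes, against 4.91% and 5.94% of the H3K36me3 bases. The order outside and inside genes can therefore not be read as a trait of the peaks.

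KDM2A peaks were nearly free of both marks. Of 3090 KDM2A peaks, 9 and 42 touched H3K36me2 islands (0.291% and 1.36%), against 43 and 24 for H3K36me3 (1.39% and 0.777%). The difference was -0.259 percentage points (exact permutation p = 0.667, two-sided, n = 2 each), and H3K36me2 was not further reduced than H3K36me3 beyond the spread of the libraries. Bases of KDM2A peaks lay in H3K36me2 islands at 0.0686 and 0.158 times the genome's share, against 0.163 and 0.163 times for H3K36me3. The peaks of SUZ12, a core subunit of Polycomb repressive complex 2, were as bare, with 0.146% and 1.76% of 34205 peaks touching H3K36me2, against 0.0789% and 0.380% for H3K36me3.

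The gap at KDM2A peaks was narrow. In the 500 bases just past the summit, islands covered 0.374% and 1.496% for H3K36me2, against 1.32% and 0.684% for H3K36me3. In the window centred 2.25 kb after the KDM2A summit they covered 6.97% and 14.3% for H3K36me2, against 17.3% and 8.07% for H3K36me3. At 9.75 kb after the summit H3K36me2 was at 6.48% and 16.1%, against 20.2% and 13.2% for H3K36me3. Most of the H3K36me2 level at 9.75 kb was thus already present at 2.25 kb, and both H3K36me3 libraries were higher at 9.75 kb than at 2.25 kb. Around DPPA2 peaks the dip was shallower, with 2.12% and 12.99% for H3K36me2 just past the centre, against 9.38% and 9.34% for H3K36me3.

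**Figure D5:**
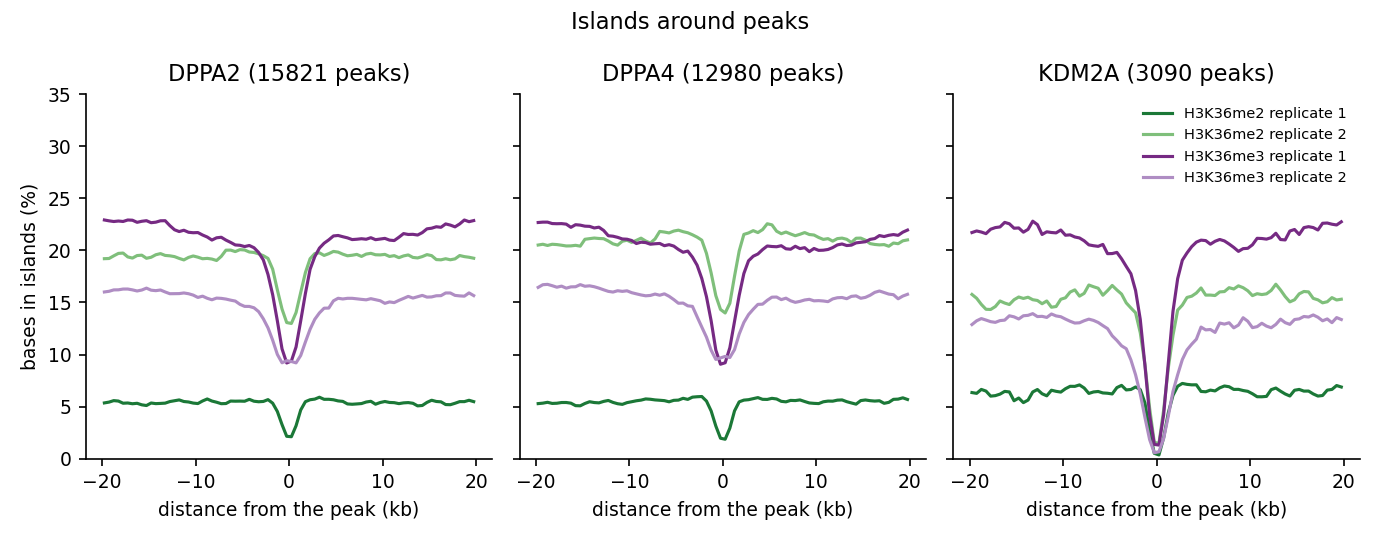
Share of bases in islands (vertical axis, %) by distance in kb from the centre of DPPA2 and DPPA4 peaks and from the summit of KDM2A peaks, in windows of 500 bases, with 1 line per library (H3K36me2 green, H3K36me3 purple). All 4 lines dip at all 3 kinds of peak, and come closest to 0 at KDM2A peaks.

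Genes with KDM2A at the start had more of both marks around it. Among genes of at least 50 kb, 789 had a KDM2A peak within 1500 bp of the gene start and 5683 had none. In the window centred 5.5 kb before the gene start, H3K36me2 islands covered 10.6% and 17.1% in genes with KDM2A, against 4.04% and 8.42% in genes without. In the window centred 6.5 kb after it, they covered 5.06% and 7.29% in genes with KDM2A, against 2.89% and 6.23% in genes without, and H3K36me3 covered 22.4% and 7.95%, against 13.2% and 3.99%. H3K36me2 was thus higher before the start than after it in both libraries, in genes with and without KDM2A. The difference between the groups of genes was not tested.

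Sequences are shown for 3 KDM2A peaks of high fold within 1 kb of the start of a gene with H3K36me2 in both libraries. The choice did not cover the whole genome, so these 3 need not have the highest fold of all such peaks. CG pairs are in capitals, since the CXXC finger of KDM2A binds unmethylated CpG-rich DNA in general. Each sequence is 200 bases around the summit, on the forward strand of hg38.
ALOXE3, first peak (chr17:8119084-8119283): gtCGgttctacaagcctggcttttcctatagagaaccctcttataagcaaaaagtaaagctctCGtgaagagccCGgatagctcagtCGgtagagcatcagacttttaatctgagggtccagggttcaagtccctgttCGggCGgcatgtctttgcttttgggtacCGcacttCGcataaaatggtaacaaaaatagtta
C2orf42 (chr2:70248913-70249112): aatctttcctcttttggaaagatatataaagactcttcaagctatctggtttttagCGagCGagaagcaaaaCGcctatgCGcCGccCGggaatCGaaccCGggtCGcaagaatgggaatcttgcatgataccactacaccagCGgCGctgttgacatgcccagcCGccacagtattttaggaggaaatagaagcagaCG
ALOXE3, second peak (chr17:8119682-8119881): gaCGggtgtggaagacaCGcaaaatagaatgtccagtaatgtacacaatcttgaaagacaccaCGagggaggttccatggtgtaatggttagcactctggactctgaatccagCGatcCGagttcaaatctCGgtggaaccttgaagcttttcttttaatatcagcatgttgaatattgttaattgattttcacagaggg
They hold 8, 13 and 6 CG pairs and have fold enrichments of 13.2, 11.4 and 10.4. The summits lie at -137, -398 and -735 bases from the gene start (negative is upstream). All 3 windows span an annotated tRNA gene in RefSeq (GRCh38.p14), TRK-TTT3-5, TRG-CCC2-1 and TRQ-CTG1-5. What in these windows KDM2A bound was not tested. ALOXE3, a skin lipoxygenase gene, had H3K36me2 over 21.2% and 67.0% of the gene, against 0% H3K36me3 in both libraries. Its nearest H3K36me2 islands were 8.98 kb and 0.883 kb from the first summit, against 20.6 kb and 20.9 kb for H3K36me3. C2orf42 had H3K36me2 over 2.63% and 1.22% of the gene, against 57.9% and 19.9% for H3K36me3, and its nearest islands were 52.3 kb and 3.69 kb from the summit for H3K36me2, against 2.41 kb and 9.31 kb for H3K36me3. The genes were chosen for H3K36me2 in both libraries, so these windows cannot show which mark goes with KDM2A sites.

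H3K36me2 also kept other company than H3K36me3 among the marks profiled in the line. H3K4me1 islands found in both replicates lay over 7.60% and 7.30% of H3K36me2 bases, against 3.92% and 6.03% of H3K36me3 bases and 1.42% of the genome. H2AK119ub, set by Polycomb repressive complex 1, lay over 2.37% and 4.91% of H3K36me2 bases, against 0.678% and 1.91% of H3K36me3 bases. It covered 1.12% of the genome, between the H3K36me3 libraries. H3K27ac lay over 4.63% and 5.44% of H3K36me2 bases, against 4.42% and 8.47% of H3K36me3 bases and 1.47% of the genome. H3K9me3, a heterochromatin mark, lay over 0.679% and 1.72% of H3K36me2 bases, against 0.440% and 1.03% of H3K36me3 bases. It covered 1.05% of the genome, between the H3K36me2 libraries. For H3K4me1 and H2AK119ub both H3K36me2 libraries were above both H3K36me3 libraries, and for H3K27ac and H3K9me3 the libraries overlapped.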

How the data were processed

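ChIP-seq of H3K36me2 and H3K36me3 in H661 was analysed from the deposited island lists. Per the labels and the study's methods, the authors trimmed and aligned reads to hg38 (BWA 0.7.13), marked duplicates (Picard 2.6.0) and called islands per replicate against matched input with EPIC2. The deposited columns used were the ChIP read count per island, the log2 fold over input and the FDR, a p-value adjusted by the authors. Narrow peaks of DPPA2, DPPA4, KDM2A and SUZ12 came with a fold enrichment and a −log10 q-value as deposited by the authors. How KDM2A peaks were called is not given in the sources used here.

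Islands were kept with an FDR below 0.05 and over 1 on the log2 scale against input. Genes came from GENCODE 44 (19320 protein-coding genes). Island reads were shared out to genes by the part inside the gene and rounded. DPPA2 and DPPA4 peaks were those found in both replicates. Coverage centres were fitted with limma 3.58.1 and reads per gene with edgeR 4.0.16 (R 4.3.3), with Benjamini-Hochberg adjustment over all genes fitted, and DESeq2 1.42.0 as an alternative. Single values were compared by a two-sided exact permutation test. Both fits were tested on simulated data. Total library depth is unknown from the island lists, so no counting interval is given.

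Named genes were the 10 called with the largest change in each direction of each fit, the 5 with the most bases of one mark and none of the other, and list members in the reads fit. Genes of which over 20% overlaps another protein-coding gene were left out. Some genes that the rule names are not reported here. The regions and 15 gene lists were chosen with earlier results of these data known. Alternatives changed the fold limit, the coverage limits, the normalization, the tool, the replicate block and the libraries used.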

Additional observations from a re-analysis of the deposited data

How the results depend on the processing

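Replicate spread limits these results, and library depth is unknown: the libraries of each mark differed by over 2 times in covered length, and 2 against 2 libraries cannot reach 0.05 in a single value. The intergenic difference was 43.9 percentage points on bases found in both replicates and 33.9 to 39.0 with 1 library left out, and the log2 ratio of marked gene lengths was -1.13 and -0.97 to -0.43. Leaving out 1 library gave differences of 9.13 to 15.9 percentage points in deciles 1 to 3 and -12.3 to -5.60 in deciles 8 to 10. For peaks touching the marks it gave -8.80 to 6.77 for DPPA2, -9.56 to 7.56 for DPPA4 and -0.793 to 0.275 for KDM2A. On bases found in both replicates the differences were -6.91, -7.23 and -0.129. The sign turned without H3K36me2 replicate 1 for DPPA2 (6.77), DPPA4 (7.56) and KDM2A (0.275), and without H3K36me3 replicate 1 for KDM2A (0.0485). Cutting every library to an equal covered length, an alternative chosen after seeing the data, turned no sign and moved no single value by more than the replicate spread.

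Genes with a shifted centre numbered 100 at a log2 fold above 2 (128 fitted), 346 without overlapping genes (603 fitted), 258 with at least 5 kb covered (375 fitted), 1050 with no minimum (2165 fitted) and 343 to 1204 with 1 library left out. Of the 592 genes called, 326 to 556 were called again in the same direction with 1 library left out and 0 in the opposite one. Genes with different reads numbered 0 at a log2 fold above 2 (2 fitted), 11 without overlapping genes, 0 with at least 25% covered (5 fitted), 500 with no minimum, 0 per covered base and 0 to 4 with 1 library left out. Of the 26 genes called, 25 were called again by DESeq2, 1 with no minimum, 0 to 2 with 1 library left out and 0 per covered base, where 1 had the opposite sign. The log2 change turned to 0.33 in FGFR1 without H3K36me2 replicate 1 (-0.59 to 0.33 with 1 library left out), and per covered base to 0.0056 in GGT7 and -0.12 in PPIA. The cause was not tested where the number of genes or libraries did not change.

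With the replicate number as a replicate block, 694 genes had a shifted centre and 52 different reads. Deviations of same-numbered libraries correlated at 0.182 over 969 genes for the centre and 0.491 over 181 genes for reads. With only 2 numbers and no label that ties them, the libraries share only a number.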

Other observations

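Most of the 50 KDM2A peaks with the highest fold enrichment lay on tRNA genes, while few of all KDM2A peaks did. The 3 windows whose sequence is printed span tRNA genes too. Of the 3090 peaks 218 (7.06%) touched a tRNA gene, and so did 41 of the 50 with the highest fold enrichment. The median fold enrichment was 8.05 in peaks at tRNA genes and 5.48 in the other peaks. Of 465 annotated tRNA genes 247 were touched. H3K36me2 islands of replicates 1 and 2 touched 2 and 0 of the 218 peaks, and H3K36me3 islands touched 0 in both replicates. KDM2A was profiled in 1 library of double-crosslinked cells, so these counts have no replicate check. The share at tRNA genes was not computed for DPPA2, DPPA4 or SUZ12 peaks, so it cannot be called particular to KDM2A.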
